A study of Saccharomyces cerevisiae with 6 samples.

Results

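Ribosome biogenesis genes of budding yeast, Saccharomyces cerevisiae, were followed by RNA sequencing in cultures at 4 h in meiosis. They were taken by name from the deposited expression table. Every entry with a single gene symbol made of NOP, UTP, RRP, RLP, DBP or NOC and a number was kept, which gave 62 of 6932 entries. The name rule uses no measured value, but it was set with earlier results of these data known. The 6 samples came from 3 genotypes with 2 each, namely wild type (WT), bas1 and ino4. The labels give no alleles, strain background or ploidy, and they name no change that all 3 genotypes carry. Cells had grown in an acetate-based rich medium at 30 °C before transfer to 2% potassium acetate, where they enter meiosis. BAS1 encodes a Myb-related activator of purine synthesis genes, and INO4 encodes a basic helix-loop-helix activator of phospholipid synthesis genes. Of the 62 genes, 60 encode factors with a known part in ribosome synthesis. DBP1, a paralog of the translation initiation helicase gene DED1, and DBP5, which encodes an mRNA export helicase, meet the name rule but act elsewhere.

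Ribosome synthesis begins in the nucleolus, where RNA polymerase I makes a long precursor rRNA. Assembly factors bind the precursor, fold, cut and modify it, and release a small and a large ribosomal subunit that mature on the way to the cytoplasm. In yeast these factor genes form a regulon that follows growth and nutrients. Many of their promoters carry the PAC element, bound by the repressors Dot6 and Tod6, and the RRPE element, bound by Stb3.

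The table gives 1 FPKM value (sequenced fragments relative to gene length and to library size) per genotype. How far samples of one genotype vary is therefore unknown, no difference has a replicate check, and no test was made. Nor can the read depth of any value be told. Genes are called higher or lower from these combined values alone. BAS1 itself was measured at 19.4 in WT and 21.1 in ino4, and at 0.00985 in bas1. INO4 stood at 307 in WT, 271 in bas1 and only 0.339 in its own mutant, so each targeted gene was lowest where the label says. The 10 meiotic genes compared, among them SPO11, HOP1 and DMC1, had median FPKM values of 826 in WT, against 892 in bas1 and 830 in ino4. All 10 had an FPKM of at least 83.9 in every genotype. In bas1, 8 of the 10 were higher than in WT (median difference 0.18), with NDT80, the regulator of middle meiotic genes, 1.86-fold higher. In ino4, 4 were higher and 6 lower (median -0.02). Of 8 vegetative G1 and budding genes, 5 were at least 1.5-fold lower in bas1 than in WT (median difference -0.72), among them CLN1 and CTS1. CLN2 was 1 of the 2 that were higher in bas1. In ino4, 0 of the 8 were at least 1.5-fold lower (median 0.02). Of all entries compared, 7.33% were at least 1.5-fold lower in bas1 and 4.62% in ino4. The part of either list in the results for bas1 was not tested. In whole cultures, a smaller share of cells that express a gene and less RNA per cell cannot be told apart.

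Differences were taken on the scale of log2(FPKM + 1), with a pseudocount of 1 that understates the change of low genes. Entries were compared where FPKM reached 1 in some genotype and was above 0 in all 3, which left 6153, and all 62 members were among them. A gene was counted as at least 1.5-fold apart when this difference was 0.585 or more in size, and as 2-fold apart at 1 or more. Folds of single genes are plain ratios of FPKM.

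The sequences upstream of these genes are described first, since the naming rule did not use them, though the motifs were chosen with earlier results known. Promoter windows of 250 bases before to 50 bases after the start codon were read from the RefSeq genome R64 with its own annotation, for all 62 members and for 6001 protein-coding genes in all. This build is not the one behind the expression table, sacCer2, so genes were matched by symbol and no coordinate of R64 is given. The stretches shown here run from 230 to 81 bases before the start codon, 5′ to 3′ on the coding strand. They belong to the 6 members at least 1.5-fold lower in ino4 than in WT, followed by DBP5, whose window has neither motif. Capitals mark GATGAG or its reverse complement CTCATC, the core of the PAC element, and AAAATTTT, which is its own reverse complement and stands at the core of the RRPE element. UTP6, UTP13, RRP5, NOP13 and DBP5 lie on the minus strand of chromosomes IV, XII, XIII, XIV and XV, and NOP1 and RRP9 on the plus strand of chromosomes IV and XVI.
UTP6: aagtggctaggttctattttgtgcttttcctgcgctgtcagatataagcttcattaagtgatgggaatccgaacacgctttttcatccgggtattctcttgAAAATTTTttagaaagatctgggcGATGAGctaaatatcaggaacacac
UTP13: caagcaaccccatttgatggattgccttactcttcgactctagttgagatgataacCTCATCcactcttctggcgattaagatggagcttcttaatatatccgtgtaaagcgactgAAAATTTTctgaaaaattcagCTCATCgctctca
NOP1: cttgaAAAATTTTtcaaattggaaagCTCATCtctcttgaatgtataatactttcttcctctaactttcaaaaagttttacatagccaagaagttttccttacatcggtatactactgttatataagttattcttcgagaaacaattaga
RRP5: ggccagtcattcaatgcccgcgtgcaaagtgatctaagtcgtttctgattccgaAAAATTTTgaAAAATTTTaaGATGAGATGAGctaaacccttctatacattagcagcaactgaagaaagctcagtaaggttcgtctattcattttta
RRP9: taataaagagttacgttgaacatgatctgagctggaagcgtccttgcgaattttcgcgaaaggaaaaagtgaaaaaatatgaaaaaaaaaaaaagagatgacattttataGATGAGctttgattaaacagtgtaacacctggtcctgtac
NOP13: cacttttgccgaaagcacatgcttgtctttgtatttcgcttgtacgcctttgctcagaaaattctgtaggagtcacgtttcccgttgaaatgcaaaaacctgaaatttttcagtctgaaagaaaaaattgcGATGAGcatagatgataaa
DBP5: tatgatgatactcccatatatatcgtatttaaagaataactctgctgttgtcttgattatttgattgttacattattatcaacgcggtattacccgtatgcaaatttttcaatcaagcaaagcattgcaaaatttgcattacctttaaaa

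The PAC core was present in 51 of 62 member windows (82.3%), against 1222 of 6001 windows of all genes (20.4%). The RRPE core was present in 37 member windows (59.7%), against 9.03% of all windows. Both were present in 33 member windows (53.2%, against 4.38% of all), and 7 member windows held neither. The 80 other small and large subunit factors from the pathway lists had higher shares than the members, with the PAC core in 71 windows (88.8%), the RRPE core in 62 (77.5%) and both in 57 (71.2%). By contrast, the RRPE core was in 9 and the PAC core in 15 of 134 windows of cytoplasmic ribosomal protein genes, which are known to be governed by other factors. Among members, 23 of 24 large subunit factors and 22 of 26 small subunit factors had the PAC core, but 3 of 7 exosome genes did. Above the start codon, the median distance of the match was 120 bases for the PAC core and 139 bases for the RRPE core. RRP5, which encodes a very large factor needed for both subunits, had the densest stretch of those shown, with 2 RRPE cores followed by 2 overlapping PAC cores. The letters TGACTC, bound by Bas1 and Gcn4, were in 3 member windows (4.84%, against 7.98% of all), those of RRP45, UTP30 and NOP13. Only the match of NOP13 lies before the start codon, while those of RRP45 and UTP30 lie after it. The letters CATGTG, bound by Ino2 with Ino4, were in 2 (3.23%, against 6.93% of all), those of UTP10 and NOP13. Among the 80 other small and large subunit factors, 9 windows held CATGTG (11.2%) and 4 held TGACTC (5.00%). All 4 motifs were searched on both strands. A match is a stretch of letters and not a measured binding site.

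**Figure D1:**
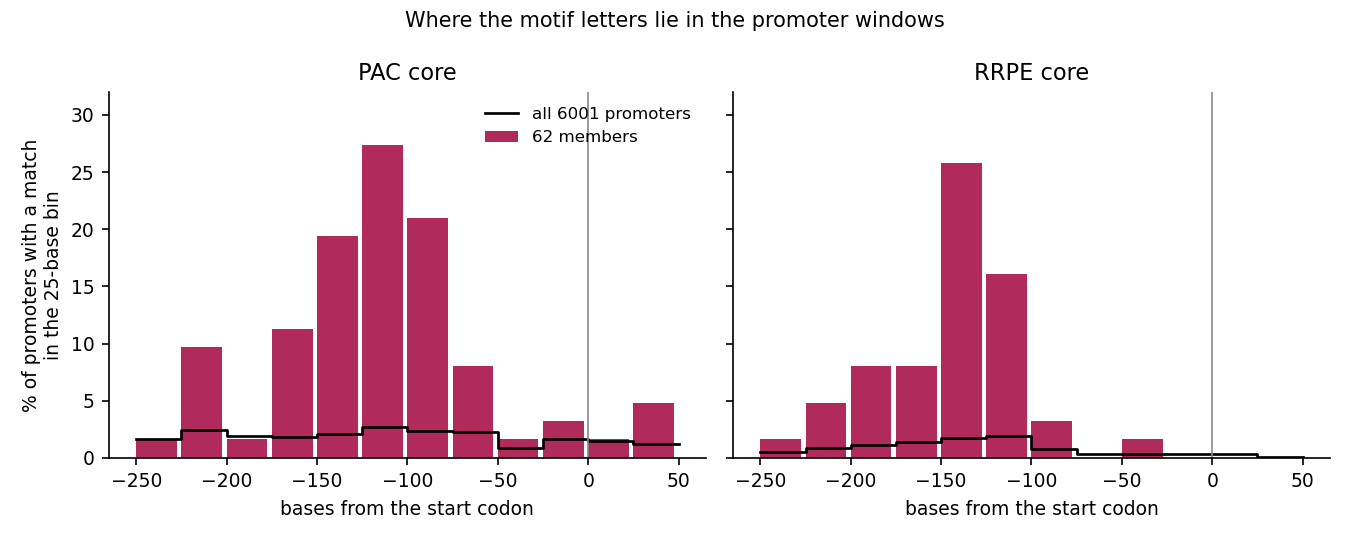
Share of promoter windows with a match to the PAC core (left) or the RRPE core (right), in bins of 25 bases from the start codon (0), as bars for the 62 members and as a line for all 6001 protein-coding genes. The tallest bar for the PAC core covers 27.4% of members at 125 to 101 bases before the start codon, against 2.73% of all genes, and that for the RRPE core covers 25.8% at 150 to 126 bases, against 1.70%.

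Most of these genes were expressed below the middle of the table. The median FPKM of the members was 20.6 in WT, against 20.4 in bas1 and 18.8 in ino4, where the 6153 entries compared had medians of 53.5, 53.6 and 53.6. In WT, 51 of the 62 members lay below the median of all entries and 11 above it. FPKM is a level per length, so members can be ranked against each other. The lowest level in WT was that of UTP22, a subunit of the UTP-C complex, at 4.97. Next came UTP13 at 5.10, UTP10 at 6.37, UTP21 at 6.93, UTP8 at 6.93 and NOP13 at 7.62. All but NOP13 encode subunits of the early small subunit processome. Neighbours in this order differed by little, and without values per sample their order is not established.

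The highest level was that of NOP10, a core protein of the box H/ACA particles that guide pseudouridine formation, with 1057 in WT, against 762 in bas1 and 991 in ino4. Its entry is only 177 bp long, the only member entry under 300 bp, and FPKM values of very short entries are less certain. DBP1 followed with 395 in WT, against 460 in bas1 and 440 in ino4. NOP16, a factor of the early large subunit, had 145, 124 and 141.5. DBP5 had 116 in WT. NOP15, which binds the precursor of the large subunit, had 68.4, and DBP2, a DEAD-box helicase, had 66.5. Thus 2 of the 4 members above an FPKM of 100 in WT were the genes whose known roles lie outside ribosome synthesis.

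**Figure D2:**
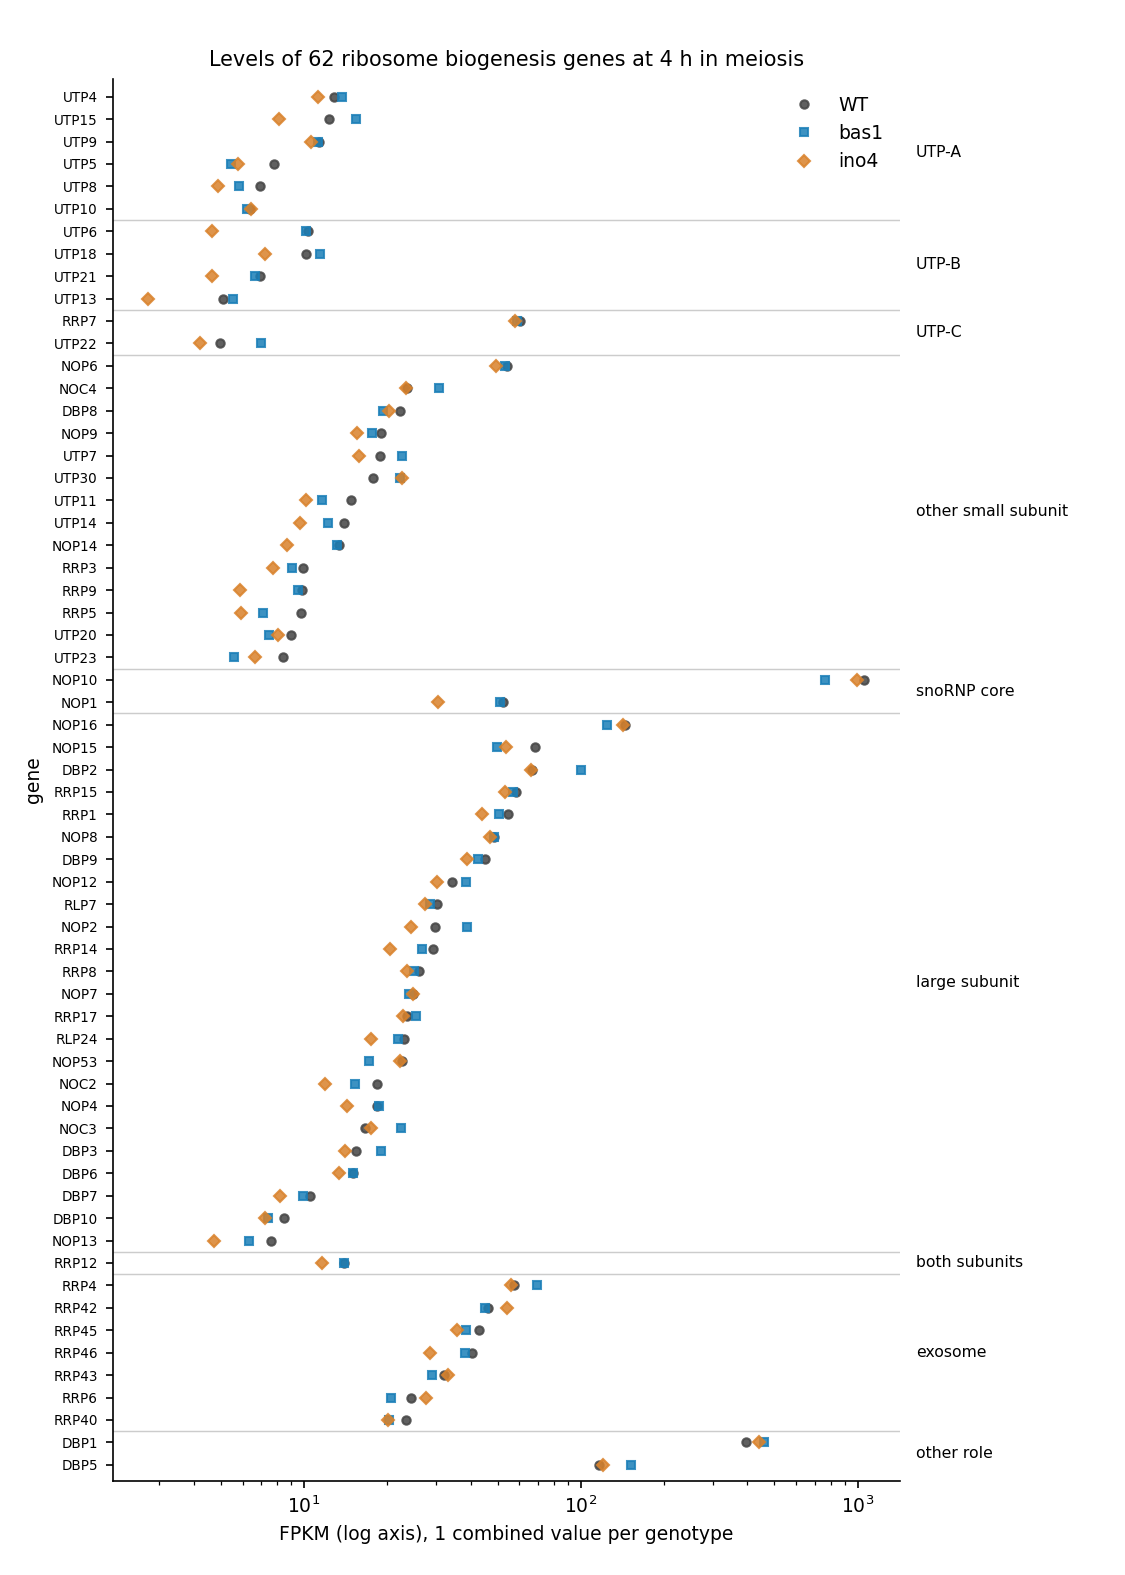
FPKM of each of the 62 genes on a log axis, grouped by role, with 1 combined value per genotype (grey circles WT, blue squares bas1, orange diamonds ino4) and no error bars because the table used here holds no values per sample. In the UTP-B group all 4 orange diamonds lie to the left of WT, from UTP18 (7.20 against 10.1) to UTP13 (2.74 against 5.10).

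The comparison of ino4 with WT asked how these genes differ in the ino4 mutant. Members were lower in ino4 almost throughout, by small amounts. Of the 62, 54 were lower in ino4 and 8 were higher, so that 87.1% were lower, against 50.6% of all entries compared. The median difference was -0.21 for members and -0.00 for all entries, and the quartiles of the members were -0.42 and -0.05. At least 1.5-fold lower were 6 members, UTP6, NOP1, UTP13, RRP9, RRP5 and NOP13, and 0 were at least 1.5-fold higher, while 56 lay between. Of all entries, 4.62% were at least 1.5-fold lower and 2.32% at least 1.5-fold higher in ino4. At the 2-fold rule UTP6 was lower and 0 members were higher, against 1.76% and 0.683% of all entries. The result is thus mainly a broad small offset rather than a set of large single differences. NOP13 lay just inside the 1.5-fold rule at -0.59, and NOC2 (-0.58) and NOP14 (-0.58) just outside it. The count of 6 became 9 with a pseudocount of 0.1 and 2 with a pseudocount of 5, and with only entries reaching an FPKM of 10 it was 2 of 49. Shares of all entries at these other settings were not computed.

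The comparison of bas1 with WT asked the same for Bas1, using the same WT values. Members stayed close to WT. The median difference was -0.05, against 0.01 over all entries, and 44 of 62 members were lower (71%), against 49.4% of all entries. No member was at least 1.5-fold higher or lower in bas1, where 3.98% of all entries were higher and 7.33% lower by this rule. At the 2-fold rule, also with 0 members in either direction, the shares of all entries were 0.975% and 2.34%. The quartiles were -0.18 and 0.10 for members and -0.23 and 0.20 for all entries.

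Between the mutants, whose comparison reuses the values of both mutants, 48 members were higher in bas1 and 14 lower, with a median of 0.21 against 0.00 for all entries. At least 1.5-fold higher in bas1 were 9 members, and 0 were lower, against 6.79% and 8.22% of all entries. The 9 were UTP6, UTP15, UTP13, NOP1, NOP2, UTP22, RRP9, UTP18 and DBP2. At the 2-fold rule there were 0 in either direction, with 2.78% of all entries higher and 2.78% lower. UTP6 came nearest, at 0.99. As plain ratios of FPKM, without the pseudocount, UTP6 was 2.20-fold and UTP13 2.03-fold higher in bas1 than in ino4.

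**Figure D3:**
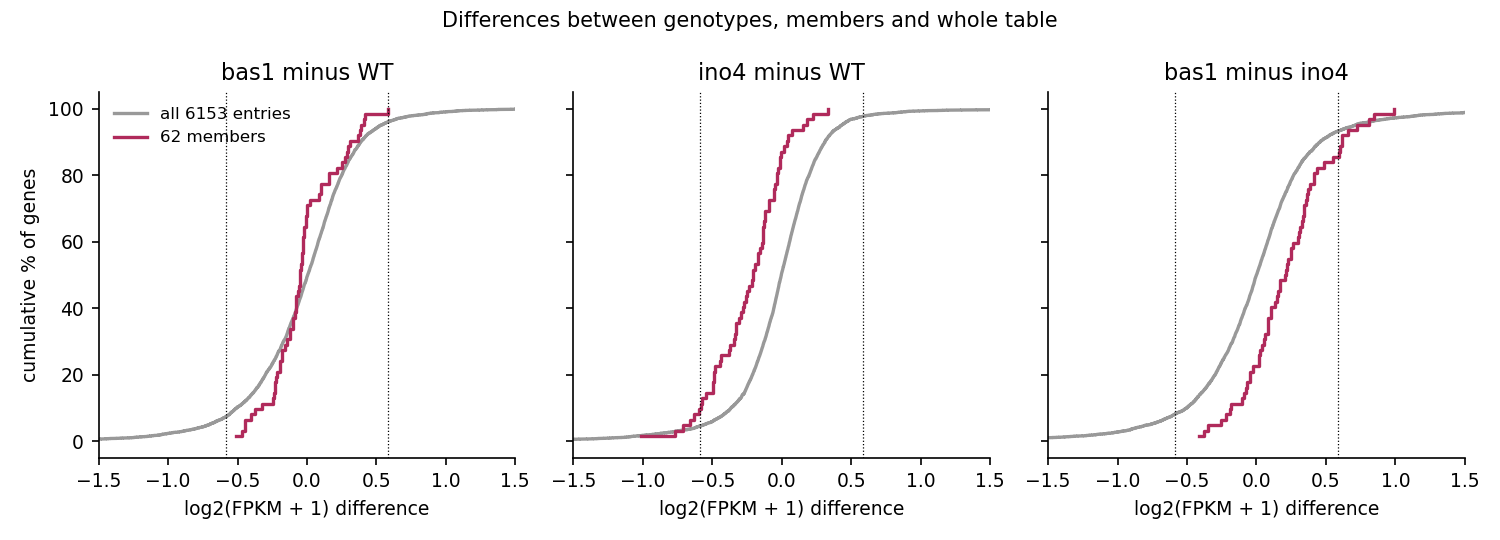
Cumulative share of genes (vertical axis, %) by log2(FPKM + 1) difference for bas1 minus WT, ino4 minus WT and bas1 minus ino4, with the 62 members in red, all 6153 entries in grey and dotted lines at 1.5-fold. The red curve lies left of the grey one for ino4 minus WT (medians -0.21 and -0.00) and close to it around 0 for bas1 minus WT (medians -0.05 and 0.01).

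The first precursor to the small subunit is built by 3 UTP subcomplexes. UTP-A binds the nascent precursor as it is transcribed. The 6 of its genes that are members had a median WT FPKM of 9.53, and UTP-A genes under other names are not counted here. In ino4, 5 of the 6 were lower and the median difference was -0.27, but none passed the 1.5-fold rule. UTP15 had an FPKM of 12.3 in WT, against 15.4 in bas1 and 8.09 in ino4. It was high in bas1 and low in ino4, and the mutants were 1.90-fold apart. UTP5 had 7.78 in WT, against 5.44 in bas1 and 5.79 in ino4, and was thus low in both mutants. UTP8 had 6.93, 5.83 and 4.87. UTP10, which encodes one of the largest proteins of the complex, had 6.37, 6.21 and 6.45 and was level across the genotypes. UTP4, the highest of these members in WT, had 12.8, 13.7 and 11.3.

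UTP-B, a complex that contacts the precursor and the U3 RNA, showed the widest offset in ino4 of the groups with more than 2 members. Its 4 genes were all lower, with a median of -0.60. UTP6 (sacCer2 chromosome IV, 1357573 to 1358895) had an FPKM of 10.4 in WT, against 10.2 in bas1 and 4.63 in ino4. It was 2.24-fold lower in ino4 than in WT, with WT and bas1 close together. UTP13 (chromosome XII, 579320 to 581773) had 5.10 in WT, against 5.55 in bas1 and 2.74 in ino4 and was 1.87-fold lower in ino4. UTP18 had 10.1, 11.5 and 7.20. UTP21 had 6.93, 6.64 and 4.64. All 4 were thus lowest in ino4. The remaining UTP-B genes carry other names, PWP2 and DIP2, and were also lower in ino4, by -0.47 and -0.29, so that 6 of 6 genes of the complex lay on the same side. In bas1 the 6 had a median of -0.04 and went both ways. The number of fragments behind such low FPKM values is not known.

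UTP-C had 2 members. UTP22 had an FPKM of 4.97 in WT, against 6.99 in bas1 and 4.22 in ino4, highest in bas1. RRP7 had 60.2, 58.6 and 57.9 and was level. RRP36, a further subunit, stands in the table as YOR287C and so is no member. It had 14.2 in WT, against 8.42 in bas1 and 9.06 in ino4, and was 1.5-fold or more lower in both mutants.

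The 14 other small subunit factors had a median of -0.28 in ino4, with 13 lower and UTP30 higher. RRP9 (chromosome XVI, 802321 to 804076) encodes the protein specific to the U3 particle, which directs the first cuts of the precursor. Its FPKM was 9.84 in WT, against 9.49 in bas1 and 5.86 in ino4, 1.68-fold lower in ino4 than in WT. It is listed at the same position as YPR136C, which had 2.80, 6.34 and 4.48, and whether strand was used in counting is not given in the sources used here. RRP5 (chromosome XIII, 725933 to 731122) had 9.77, 7.13 and 5.94 and was low in both mutants, 1.64-fold in ino4 and 1.37-fold in bas1. NOP14, a core factor of the small subunit processome named after its values were seen, had 13.4, 13.2 and 8.65. UTP23, which acts on a snoRNA bound to the precursor, had 8.36, 5.56 and 6.64 and was the lowest member in bas1 by its difference (-0.51). NOP6 had the highest WT level of this group, with 54.3, 53.2 and 49.4. UTP30 had 17.7, 22.2 and 22.6, and was higher in both mutants. NOC4, partner of Nop14 and named after its values were seen, had 23.5, 30.6 and 23.3.

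The snoRNP core proteins carry out or support guided modification of the rRNA. NOP1 (chromosome IV, 427362 to 428345), the yeast fibrillarin gene, encodes the methyltransferase of box C/D particles. Its FPKM was 52.4 in WT, against 50.9 in bas1 and 30.4 in ino4, 1.73-fold lower in ino4, and it had the highest level of the 6 members past the 1.5-fold rule. Its partner NOP56 stands in the table under the older name SIK1 and is no member. It had 23.3, 21.1 and 14.9 and was also low in ino4, with a difference of -0.61. NOP58, the third, is merged with YOR309C in a single entry with 24.5, 22.1 and 20.2. SNU13, the fourth core gene of these particles, had 48.7, 49.6 and 52.1, so the core genes of the particle did not differ alike.

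Large subunit factors formed the biggest group, with 24 members. In ino4, 23 of the 24 were lower, with a median of -0.16 and a lowest value of -0.59, and the exception was NOC3 at 0.07. NOP13 (chromosome XIV, 307403 to 308648), which encodes a nucleolar RNA-binding protein, had an FPKM of 7.62 in WT, against 6.33 in bas1 and 4.71 in ino4. It shares its listed position with YNL174W, which had 2.17, 6.63 and 1.19, so the split of reads between them is uncertain. NOC2, a partner of Noc3 in early large subunit particles that was named after its values were seen, had 18.3, 15.3 and 11.9. In bas1, 17 of the 24 were lower and 7 higher, with a median of -0.06. DBP2 led the members that were higher in bas1, with 66.5 in WT, against 100.1 in bas1 and 65.9 in ino4. WT and ino4 were close and bas1 was 1.50-fold higher as a plain ratio, just short of the rule on the log2(FPKM + 1) scale (0.58). Its entry spans an intron, and it is the only member with 2 coding exons in R64.

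NOC3 had 16.6 in WT, against 22.4 in bas1 and 17.5 in ino4. NOP2, which methylates a cytosine of the large rRNA, had 29.6, 38.9 and 24.2. Both were highest in bas1. NOP15 had 68.4, 49.9 and 53.7, low in both mutants. NOP53, which brings the exosome to the precursor, had 22.6, 17.2 and 22.2 and was low in bas1. RRP12, which aids the export of both subunits and stands apart from these groups, had 13.9, 13.9 and 11.6.

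The exosome trims and degrades RNA from the 3′ end, and its 7 members had the group median nearest to WT in ino4. Their median difference was -0.03, with 4 lower and 3 higher, but single genes ran from -0.50 to 0.23. Their median WT FPKM was 40.5, above the 9.53 of the UTP-A members and 8.53 of the UTP-B members. RRP42, a subunit of the ring, had 46.0 in WT, against 45.0 in bas1 and 54.1 in ino4. RRP6, the nuclear exonuclease, had 24.3, 20.6 and 27.7. Both were thus highest in ino4. RRP4, a subunit of the cap and the highest of the group, had 57.4, 69.6 and 56.1. RRP40, the lowest of the group, had 23.3, 20.3 and 20.1. RRP46, named after its values were seen, lay furthest below WT of the group in ino4 (-0.50), with 40.5, 38.2 and 28.4. In bas1, 6 of the 7 were lower, with a median of -0.14.

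DBP1 was higher in both mutants. DBP5 was higher in bas1 but close to WT in ino4, with a difference of 0.05. DBP1 had differences of 0.22 in bas1 and 0.15 in ino4. DBP5 had 116 in WT, against 152 in bas1 and 120.0 in ino4.

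**Figure D4:**
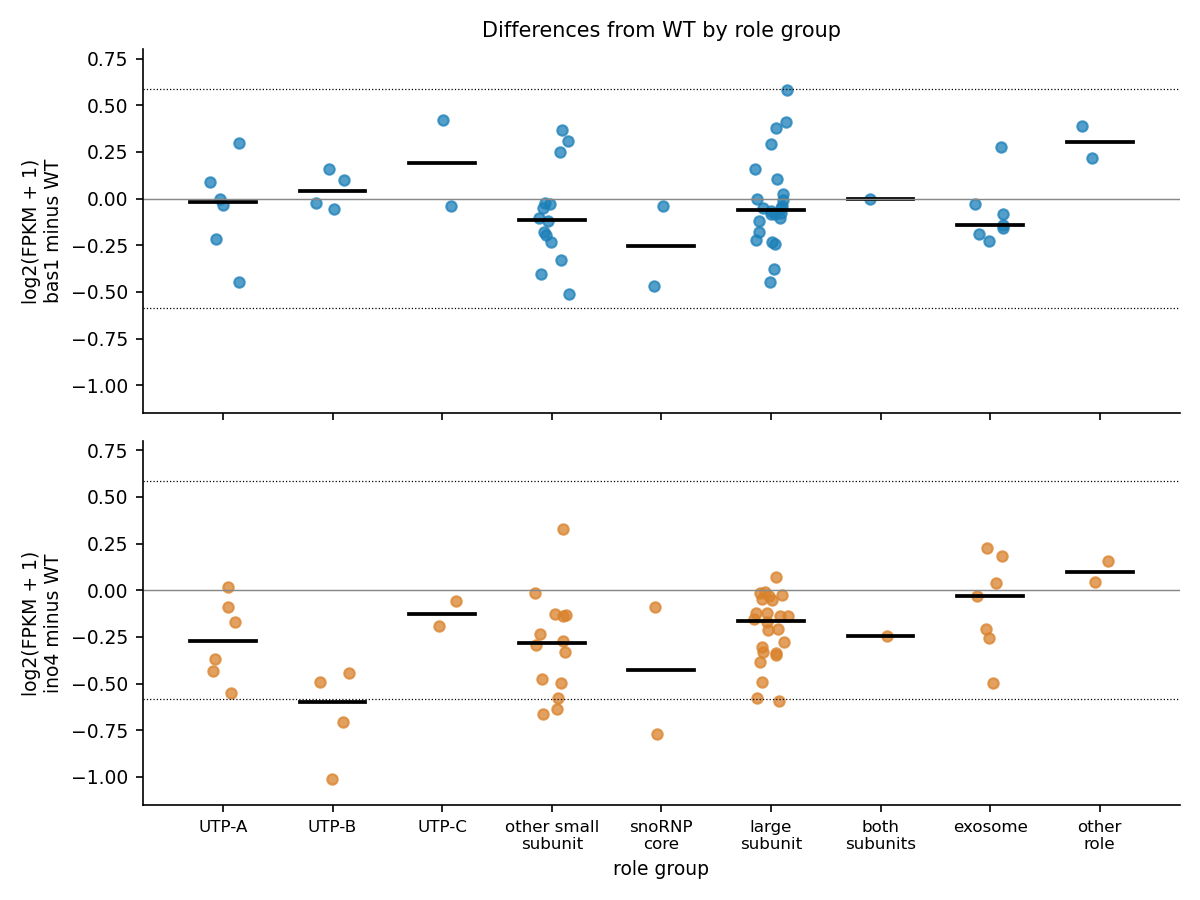
Difference from WT on the log2(FPKM + 1) scale for bas1 (top) and ino4 (bottom), 1 point per gene by role group, with the group median as a black bar and dotted lines at 1.5-fold. In ino4 the group medians run from -0.60 for UTP-B to 0.10 for the genes of other roles, with the exosome at -0.03.

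The offset in ino4 was larger among members of low level. Members were split at their median of 20.6 for the mean FPKM over the 3 genotypes. The 31 below it had a median difference of -0.33 in ino4, with 29 lower, where the 1319 entries below the same level had -0.04. The 31 at or above it had -0.09, with 25 lower, where the 4834 entries had 0.01. Split at a length of 1557 bp, the shorter members had a median of -0.14 and the longer ones -0.24, against 0.00 and -0.01 over all entries. In bas1 the low and high members had medians of -0.05 and -0.05, with 22 of 31 lower in each. All entries had -0.06 below this level, with 773 of 1319 lower, and 0.02 at or above it. By median, the low members thus lay no lower in bas1 than entries of like level. Level and length thus moved with the size of the offset in ino4, and their part in it was not tested.

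Differences were also set out by motif content. The 33 members with both cores had a median of -0.21, with 31 lower. The 18 with the PAC core alone had -0.29, with 17 lower. The 4 with the RRPE core alone had -0.04, with 3 lower. The 7 with neither had 0.05, with 3 lower. These 7 are DBP1, DBP5, UTP22, UTP30 and the exosome genes RRP42, RRP45 and RRP46, so motif class and role group overlap. Outside the members, the 218 entries compared with both cores had a median of -0.15 in ino4, with 154 lower (70.6%). The 4146 with neither core had 0.00, with 49.4% lower. Where the listed genes of ribosome synthesis were also left out, 139 entries with both cores remained, with a median of -0.13 and 66.9% lower. In bas1 the same 139 had a median of 0.04, with 44.6% lower. Members differed by motif class in bas1 too, with medians of -0.04 for both cores (25 of 33 lower), -0.10 for the PAC core alone (13 of 18 lower), -0.13 for the RRPE core alone (3 of 4 lower) and 0.22 for neither (3 of 7 lower). Entries outside the members with the PAC core alone (827) or the RRPE core alone (257) had medians of 0.00 and -0.01 in ino4.

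Other genes of ribosome synthesis were taken from 7 lists of 141 genes in all. All 141 were found by symbol or synonym, and 138 were compared, since 3 are merged with a neighbour. Lists of assembly factors lay on the same side as the members in ino4. Of 33 other small subunit factors, 24 were lower and 9 higher, with a median of -0.19. At least 1.5-fold lower were 3 of the 33, against 4.62% of all entries. The 3 were BFR2, SOF1 and ESF1, all of the small subunit processome. BFR2 had 16.8 in WT, against 14.3 in bas1 and 7.53 in ino4. SOF1 had 16.2, 13.6 and 8.31, and ESF1 had 14.3, 12.9 and 8.15. DIM1, which methylates the small rRNA, was the highest of the list in ino4, with 35.5, 32.9 and 53.7. In bas1 the list had a median of -0.04, with BUD21 1.65-fold lower.

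Of 47 other large subunit factors, 40 were lower and 7 higher in ino4, with a median of -0.25. At least 1.5-fold lower were 3 of the 47, against 4.62% of all entries. RIX1, which acts in late nuclear steps, had 10.1 in WT, against 9.40 in bas1 and 4.94 in ino4. YTM1, a partner of Nop7, had 10.6, 11.0 and 5.50. DRS1, a DEAD-box helicase gene, had 10.1, 8.33 and 5.94. In bas1 the list had a median of -0.03, with 25 lower and 22 higher.

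The polymerases, particles and regulators went less evenly. The 13 genes of RNA polymerase I subunits and factors had a median of -0.12 in ino4, with 7 lower and 6 higher, and 0.19 in bas1, with 9 higher. Of the subunits, RPA34, RPA43, RPA49, RPA135 and RPA190 were lower in ino4 and RPA12 was higher. Of the factors, RRN9 and RRN10 were lower in ino4, and RRN3, RRN6, RRN7, RRN11 and UAF30 were higher. RPA43, the subunit that contacts the initiation factor Rrn3, had 14.2 in WT, against 21.7 in bas1 and 8.12 in ino4, on opposite sides of WT. The 13 RNA polymerase III genes had a median of -0.24 in ino4, with 8 lower and 5 higher, and RPC25 was 1.54-fold higher. RPC10, whose entry is 213 bp long, was at least 1.5-fold lower in bas1, with 17.7 in WT and 11.5 in the mutant. The 11 other snoRNP genes had a median of 0.08. Among them CBF5, the pseudouridine synthase gene of box H/ACA particles, was 2.24-fold lower in ino4, with 16.1, 10.9 and 7.20, and TAH1, an assembly factor gene, was 1.64-fold higher. The 11 other exosome genes had a median of 0.03, with 5 lower and 6 higher. The 10 regulators had 0.02, with 5 on each side and none past the 1.5-fold rule. Among these, DOT6, the gene of a PAC-binding repressor, had 186 in WT, against 274 in bas1 and 209 in ino4, TOD6 (listed as YBL054W) had 73.0, 68.8 and 62.8, and STB3 had 270.1, 291 and 263. The 134 cytoplasmic ribosomal protein genes had a median of 0.11 in ino4 and 0.11 in bas1, the opposite sign from the members in both.

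**Figure D5:**
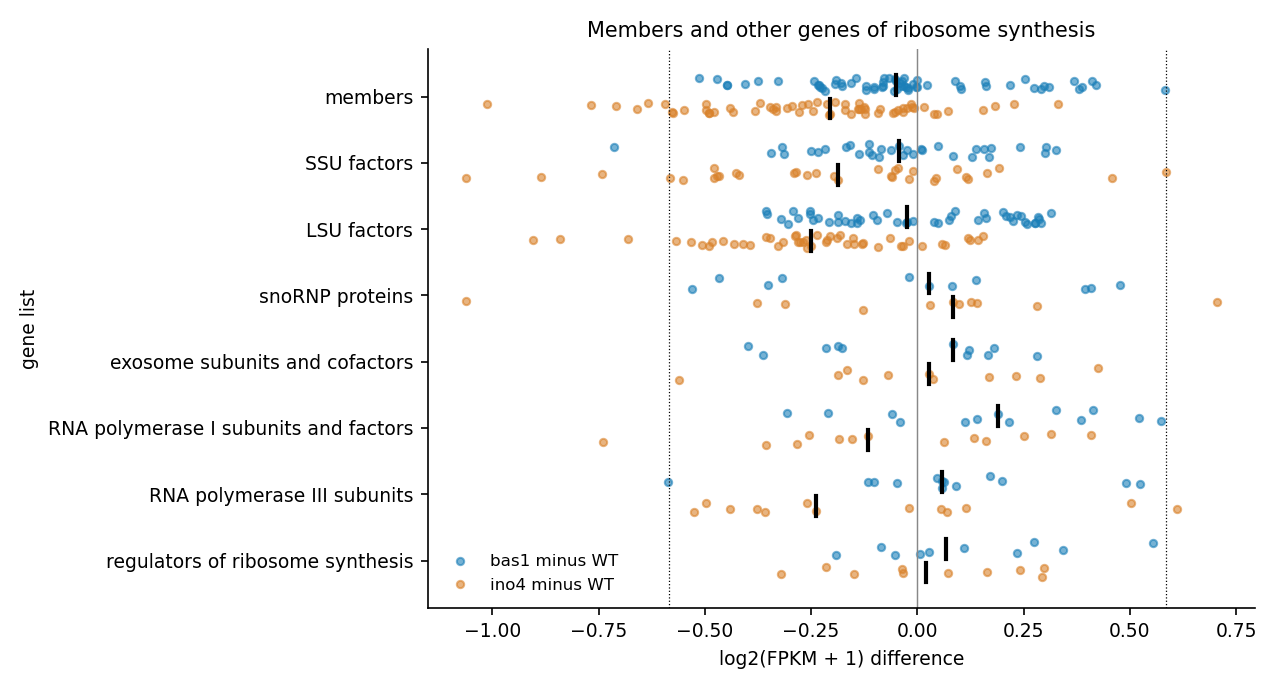
Difference from WT on the log2(FPKM + 1) scale for the 62 members and 7 lists of other ribosome synthesis genes, 1 point per gene (blue bas1, orange ino4), with medians as black bars and dotted lines at 1.5-fold. Medians in ino4 are negative for members (-0.21), SSU (small subunit) factors (-0.19) and LSU (large subunit) factors (-0.25). They are also negative for the subunits of RNA polymerase III (-0.24) and the subunits and factors of RNA polymerase I (-0.12). The other medians are 0.08 for snoRNP genes, 0.03 for exosome genes and 0.02 for regulators.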

How the data were processed

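RNA was isolated from meiotic cultures by phenol extraction and made into libraries with an Illumina TruSeq kit, per the labels. STAR and Cufflinks with the build sacCer2 are listed in the submitters' processing notes. Which versions, settings and strand use applied, and how samples were combined, is not given in the sources used here. Per the file headers, the deposited values are FPKM, 1 column per genotype. Multiplied by length, at most 16.7% of 300 low values per genotype were whole within 0.05 reads at the best unit, where a fixed unit gives 10%. Reads were not recovered, so depth is unknown and no interval or floor is given.

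Entries below an FPKM of 1 in all genotypes were left out. Of those over the filter, 87 were at 0 in a genotype and left out, since an exact 0 can be a failed estimate. Values were taken as log2(FPKM + 1) without scaling, in Python 3.11.15 with pandas 2.3.3. No test was possible and the planned limma fit for values per sample was not used. The 1.5-fold rule was tested on simulated data with larger planted changes in a mutant column. Small median offsets, motif counts and the splits by level and length were not simulated. The members, lists, motifs and the 1.5-fold rule were chosen with earlier results of these data known. The comparisons by motif class and by level and length were added after seeing the data.

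Named members were the 5 highest and 5 lowest differences of each comparison, those 2-fold apart, the 6 highest and 6 lowest WT levels, and the highest and lowest WT level of each role group. From other lists up to 3 of the largest differences were eligible. PWP2, DIP2, SNU13, RRP36, NOP56, NOP58, DIM1, TOD6, STB3 and UTP18 were named for their place in a complex or list, after values were seen. The same holds for the subunits and factors of RNA polymerase I other than RPA43. Positions are those of the table, counted from 1. Entry and R64 coding length were equal for 55 of 62 members.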

Additional observations from a re-analysis of the deposited data

How the results depend on the processing

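No paired analysis was possible because the table holds 1 combined column per genotype, and for the same reason no sample could be left out. Each result was recomputed with pseudocounts of 0.1 and 5, no filter on low values, an FPKM of at least 10, median, quantile and trimmed mean scaling (30% trimmed at each end), without entries at a shared position, without DBP1 and DBP5, and with a 2-fold rule for counts. A further setting, chosen after seeing the data, added the 5 unmerged genes listed under other names. The median difference of the members kept its sign in all 10 settings, from -0.22 to -0.16 for ino4 against WT, -0.05 to -0.02 for bas1 against WT and 0.14 to 0.22 for bas1 against ino4. No scaling moved the median of all entries by more than 0.03.

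Counts at the 1.5-fold rule depended on the setting. In the main setting, 4.62% of all entries were lower in ino4 than in WT, and 6.79% were higher in bas1 than in ino4. By the 2-fold rule these shares were 1.76% and 2.78%. For the other settings the shares of all entries were not computed, so whether they moved like the members is unknown. Members lower in ino4 than in WT numbered 6 as reported and from 1 to 9 over the settings, with 9 at a pseudocount of 0.1, 8 of 67 with the genes under other names, 4 of 56 without shared positions, 2 with a pseudocount of 5, 2 of 49 with an FPKM of at least 10, 3 under quantile normalization and 1 by the 2-fold rule. Members higher in bas1 than in ino4 numbered 9, and 10 with a pseudocount of 0.1, but 3 with a pseudocount of 5 and 0 by the 2-fold rule. Against WT, bas1 had 1 higher member with a pseudocount of 0.1, and 1 lower gene once the genes under other names were added. Counts of members higher in ino4 than in WT and lower in bas1 than in ino4 were 0 in all 11 settings.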

Other observations

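Outside the comparisons above, only RRP15 and NOC4 among the 62 members are immediate neighbours in the R64 annotation, in convergent orientation. Their differences were -0.04 and 0.37 in bas1 and -0.12 and -0.01 in ino4. Of the 6 members listed at the position of another entry, the partner of RRP17, YDR413C, was listed at 0 in all 3 genotypes. The partner of RRP14, YKL083W, measured 19.8 FPKM in WT, against 14.2 in bas1 and 10.0 in ino4, beside 29.2, 26.8 and 20.5 for RRP14 itself. The partner of NOP4, YPL044C, had 5.57, 8.85 and 5.29, beside 18.3, 18.6 and 14.2 for NOP4.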
